A study of Mus musculus with 9 samples.

Results

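Homeobox transcription factors outside the Hox clusters were followed in cultured mouse myoblasts that carried an empty vector, overexpressed Pax3 or overexpressed Pax7. The genes were taken by name, as every gene with a probe set of a single symbol in 12 families (Alx, Barx, Dlx, Irx, Lhx, Meis, Msx, Nkx, Pbx, Pitx, Prrx and Shox). This gave 53 of the 19661 genes tested, 51 coding genes and 2 non-coding transcripts (Dlx1as and Irx3os), each read by 1 probe set. Homeobox genes of other families outside Hox were kept in a separate list, and the choice was made with earlier results of these data known. The myoblasts came from skeletal muscle on a Balb/c background and were kept in F10 with serum (20%) and basic fibroblast growth factor (4 ng/ml). Total RNA was hybridised to 9 arrays, 3 for the empty vector control, 3 for Pax3 and 3 for Pax7. The sources used here do not give how the constructs were delivered, which promoter drove them, whether a group was a single clone or whether its 3 samples were separate cultures. The p-values therefore reflect the spread among these 9 samples alone, and that spread may be technical. In such bulk samples, fewer cells of a type and less RNA per cell cannot be told apart.

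A homeobox encodes the homeodomain, a DNA-binding fold that most of these proteins use to recognise short AT-rich sites. In the embryo the families divide up space: Prrx, Alx, Msx, Dlx and Shox genes act in limb, face and skull mesenchyme, Irx genes in nested domains along the limb, heart and neural tube, and Lhx and Nkx genes mostly in neural, endodermal and cardiac progenitors. Meis and Pbx proteins belong to the TALE class of homeodomain proteins and bind DNA together with Hox and other factors, MyoD among them. Pax3 and Pax7 are themselves paired-box proteins with a homeodomain and act in muscle precursors and satellite cells.

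The arrays followed their labels. The log2 intensity of Pax3 was 5.83 ± 0.071 on control, 11.05 ± 0.046 on Pax3 and 6.82 ± 0.039 on Pax7 arrays, and that of Pax7 was 10.51 ± 0.081, 8.18 ± 0.065 and 12.28 ± 0.030 (SD, n = 3 each). All 9 markers of myoblasts and satellite cells lay above the low-signal yardstick described in the next paragraph in every group. Of these 9, which include Pax7 itself, 2 rose and 5 fell in Pax3 arrays and 3 rose and 5 fell in Pax7 arrays. Their median log2 differences were -0.47 and -0.43. Between Pax7 and Pax3 arrays 1 was higher and 6 were lower. Of 10 markers of differentiated muscle, 10 fell in Pax3 and 10 in Pax7 arrays, with summed linear intensities of 18480 to 20460 in control, 6863 to 7003 in Pax3 and 3329 to 3946 in Pax7 arrays. Myh1 in Pax3 arrays and Myh1 and Myh8 in Pax7 arrays reached the yardstick. Of 10 fibroblast and mesenchymal markers, 1 rose and 2 fell in Pax3 arrays and 2 rose and 2 fell in Pax7 arrays, with sums of 1270 to 1381, 1172 to 1245 and 988.4 to 998.9. In every group Dcn, Lum, Dpt and Tcf21 were at or below the yardstick. Of 6 measured chondrocyte and osteoblast markers 1 rose and 2 fell in either group, of 7 smooth muscle markers 6 fell, and of 6 neuronal markers 1 rose and 1 fell in Pax3 and 2 rose and 1 fell in Pax7 arrays. The smooth muscle sums were 10730 to 11370 in control, 7044 to 7062 in Pax3 and 4180 to 4356 in Pax7 arrays. The neuronal sums were 355 to 370.8, 2600 to 2720 and 2499 to 2720. The median log2 differences of the 6 neuronal markers from control were 0.07 and 0.04, so these sums do not describe most of them. Nefl was at or below the yardstick in control arrays only, and Snap25 and Syt1 in every group. Epithelial (3 of 6), endothelial (1 of 5, then 2) and macrophage (1 of 5) markers that passed rose. Control arrays carried Y-linked transcripts (Eif2s3y at 8.78, against 3.12 in Pax3 and 3.08 in Pax7 arrays) and Pax3 and Pax7 arrays carried Xist (11.96 and 11.72, against 4.77 in control). Every difference from control given here was therefore also a difference between cells with and without Y-linked transcripts. The control cells may have come from another animal or line than the Pax3 and Pax7 cells, which was not tested. An effect of a factor and a difference in the origin of the cells cannot be told apart. Below, "under both factors" means only in Pax3 and in Pax7 arrays as compared with control arrays. Between Pax7 and Pax3 arrays the 3 measured Y-linked genes did not pass, and Xist was lower in Pax7 arrays (log2 difference -0.24, limma adjusted p = 0.0262). The part of the fall in muscle markers in the results below was not tested.

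The homeobox genes ranged from low to strong signal in myoblasts. No detection calls were used here, so 1186 olfactory and vomeronasal receptor genes on the same arrays served as a yardstick of low signal. The 95th percentile of their highest group mean was a log2 intensity of 5.6. Of the 53 homeobox genes, 9 stayed at or below it in every group (Alx1, Dlx1as, Dlx5, Dlx6, Irx4, Lhx5, Lhx8, Nkx2-2 and Nkx2-3) and 44 lay above it in at least 1 group. In 18 the highest group mean exceeded 6.88, the median over all genes of the mean over arrays. A mean over the 9 arrays above 8, a level chosen after the values were seen, was found in 10. These were Prrx1 and Prrx2, regulators of limb and skull mesenchyme; Dlx1 and Dlx2, best known from forebrain interneurons and the jaw; the TALE factors Pbx2, Pbx3, Meis2 and Meis3; and Irx2 and Pitx3, the latter required in lens, midbrain neurons and fetal muscle.

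**Figure D1:**
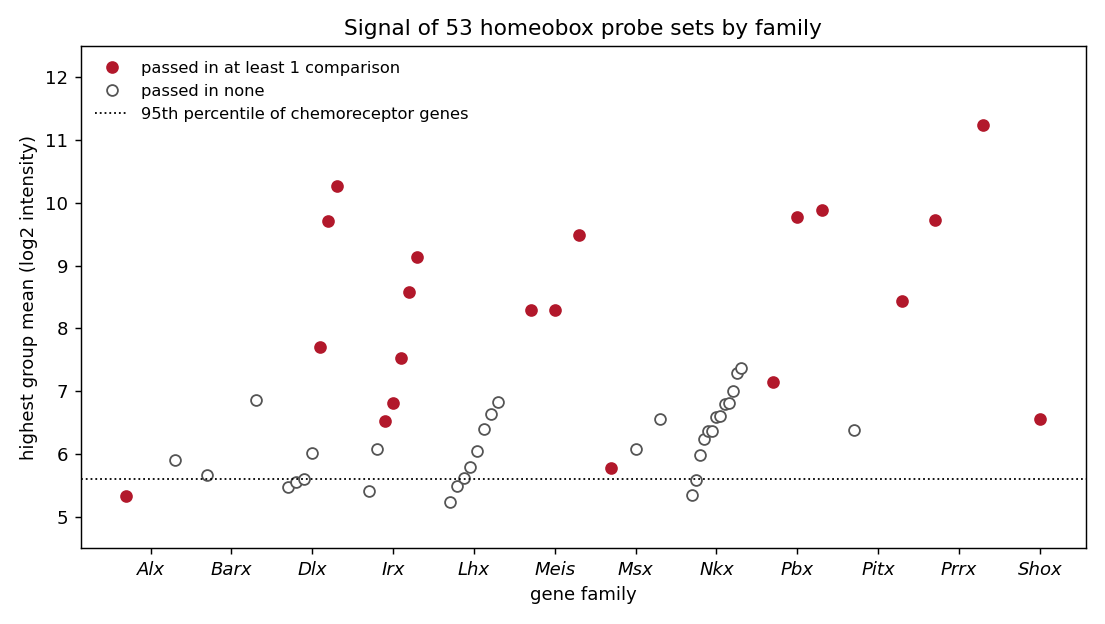
Highest of the 3 group means (log2 intensity, vertical axis) for each of the 53 homeobox probe sets, by gene family (horizontal axis). Filled points passed the test in at least 1 comparison, open points passed in none, and the dotted line is the low-signal yardstick at 5.6; no Lhx, Nkx or Barx gene was filled.

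The homeobox genes moved in both directions. The Meis family split, with Meis1 and Meis3 higher and Meis2 lower under both factors. Dlx1 and its chromosomal neighbour Dlx2 fell, Shox2 fell, and Irx2, Irx3 and Irx5 rose. In all, 20 of the 53 genes passed in at least 1 of the 3 comparisons (limma, Benjamini-Hochberg adjusted p under 0.05 over all 19661 genes), beside 49.7% of all genes. The comparisons of Pax3 and of Pax7 with control share the control arrays, so their values are given side by side.

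**Figure D2:**
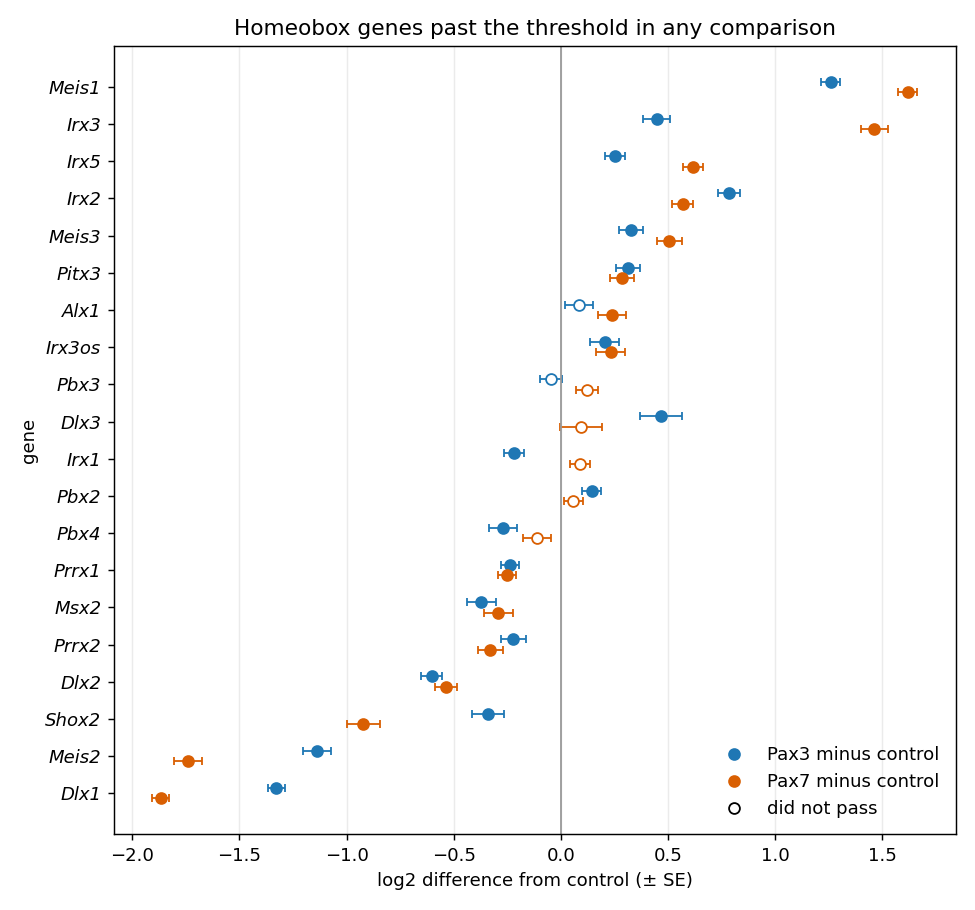
Log2 difference from control (horizontal axis, points with moderated standard error) in Pax3 and Pax7 arrays for the 20 homeobox genes that passed in any of the 3 comparisons (vertical axis, ordered by the Pax7 difference). Open points did not pass; Meis1 and Irx3 lie farthest to the right and Dlx1 and Meis2 farthest to the left.

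The counts are given beside the share of all genes that passed, and the differences between these shares were not tested. Between Pax3 and control arrays 18 of 53 passed (34%, against 39.6% of all genes), 9 higher and 9 lower (17% each, against 19.8% and 19.7%). Between Pax7 and control arrays 15 passed (28.3%, against 43.2%), 8 higher and 7 lower (against 21.6% and 21.5% of all genes). Between Pax7 and Pax3 arrays 10 passed (18.9%, against 16.9%), 5 in each direction (9.43% each, against 8.33% higher and 8.54% lower). Of those that passed, 3, 4 and 1 differed by 1 log2 unit or more (5.66%, 7.55% and 1.89%, against 4.8%, 6.58% and 0.895% of all genes). Arrays of the groups did not overlap in 18, 28 and 13 of them (34%, 52.8% and 24.5%, against 45.1%, 55.5% and 29.4%). Their median log2 difference was 0.04, 0.09 and 0.04, beside 0.02, 0.03 and 0.01 over all genes. Leaving out Pax3 replicate 3 raised the number higher in Pax7 than in control arrays from 8 to 13, and leaving out Pax7 replicate 3 lowered the number lower in Pax7 than in Pax3 arrays from 5 to 3.

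Signal level divided the counts. Of the 10 genes with a mean above 8, 9 passed between Pax3 and control, 8 between Pax7 and control and 4 between Pax7 and Pax3, where 62.4%, 65.5% and 25.7% of all genes above that level did. Of the other 43 genes, 9, 7 and 6 passed (20.9%, 16.3% and 14%), beside 25.4%, 29.3% and 11.4% of all genes at or below it. These shares describe small sets and were not tested.

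Upstream sequence is given for the 4 genes that changed by at least 1 log2 unit and for Dlx2, because Dlx1 and Dlx2 are neighbours that fell together and Meis1 and Meis2 are close relatives that moved apart. Each line holds the 250 bases upstream of 1 RefSeq start on GRCm38.p6, 5′ to 3′ on the gene's strand. The windows of Dlx1, Meis1 and Meis2 lie inside the annotated gene, downstream of its outermost start, and those of Dlx2 and Irx3 lie outside it. Capitals mark the homeodomain half-site TAAT and the CCAAT box, read on both strands (ATTA and ATTGG on the other).
Dlx1, GRCm38.p6 chr2:71529195-71529444, plus strand: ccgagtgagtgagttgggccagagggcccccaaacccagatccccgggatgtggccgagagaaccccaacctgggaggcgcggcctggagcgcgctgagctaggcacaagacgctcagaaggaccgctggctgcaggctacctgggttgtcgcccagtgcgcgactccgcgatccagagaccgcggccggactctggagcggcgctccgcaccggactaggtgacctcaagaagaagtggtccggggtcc
Dlx2, GRCm38.p6 chr2:71546755-71547004, minus strand: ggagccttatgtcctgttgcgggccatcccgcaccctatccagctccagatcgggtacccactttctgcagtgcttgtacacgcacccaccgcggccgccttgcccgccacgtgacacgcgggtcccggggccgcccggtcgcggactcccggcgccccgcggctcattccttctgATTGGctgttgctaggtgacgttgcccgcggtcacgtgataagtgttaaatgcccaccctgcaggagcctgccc
Meis1, GRCm38.p6 chr11:19018970-19019219, minus strand: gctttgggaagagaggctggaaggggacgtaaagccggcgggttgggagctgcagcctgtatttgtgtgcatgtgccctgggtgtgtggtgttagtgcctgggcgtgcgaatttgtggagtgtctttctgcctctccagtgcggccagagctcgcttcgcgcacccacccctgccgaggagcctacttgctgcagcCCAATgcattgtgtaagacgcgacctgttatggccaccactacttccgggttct
Meis2, GRCm38.p6 chr2:116064620-116064869, minus strand: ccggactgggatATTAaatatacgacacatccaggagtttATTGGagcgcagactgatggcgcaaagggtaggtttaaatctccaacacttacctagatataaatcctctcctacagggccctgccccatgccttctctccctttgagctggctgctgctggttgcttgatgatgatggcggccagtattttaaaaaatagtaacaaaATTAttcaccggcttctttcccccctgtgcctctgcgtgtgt
Irx3, GRCm38.p6 chr8:91801655-91801904, minus strand: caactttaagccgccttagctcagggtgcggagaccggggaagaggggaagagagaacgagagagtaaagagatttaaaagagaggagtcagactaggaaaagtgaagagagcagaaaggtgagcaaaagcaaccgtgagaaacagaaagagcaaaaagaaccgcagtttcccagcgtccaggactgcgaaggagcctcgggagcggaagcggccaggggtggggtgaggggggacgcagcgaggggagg

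Of the 53 genes, 37 had an entry in that table, with 41 windows. TAAT was present upstream of Meis2 and absent from the other 4 windows printed. It was held by 15 of the 41 windows and by 54.9% of 32851 windows of the same length. The share of G and C was 68% for Dlx1, 66.4% for Dlx2, 59.6% for Meis1, 56% for Irx3 and 47.6% for Meis2. Its median over all windows was 52.4%, and the part of base composition in the absence of TAAT was not tested. CCAAT was present upstream of Dlx2, Meis1 and Meis2, beside 33.8% of all windows. The Pax homeodomain dimer site (TAAT and ATTA with 2 bases between them), the paired-domain core GTCACGC, the Meis site TGACAG and the Pbx site TGATTGAT were searched on both strands and had no match in the 5 windows; 0.384%, 1.78%, 15.9% and 0.67% of all windows held them. The dimer site contains TAAT, so those searches overlap. A match describes these letters only.

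Meis genes encode TALE homeodomain proteins that bind with Pbx and Hox partners. Meis1 had log2 intensities of 6.65, 6.68 and 6.68 on the control arrays, 7.95, 7.99 and 7.85 on the Pax3 arrays and 8.30, 8.27 and 8.30 on the Pax7 arrays. The 3 groups did not overlap, and control lay lowest. Against control, Meis1 was 2.39-fold higher in Pax3 (log2 difference 1.26 ± 0.044, SE, n = 3 per group, limma adjusted p = 2.6e-09) and 3.07-fold higher in Pax7 arrays (1.62 ± 0.044, adjusted p = 2.24e-10). Pax7 exceeded Pax3 arrays by 0.36 ± 0.044 (adjusted p = 0.000202).

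Meis2 ran the other way. Its log2 intensities were 9.53, 9.44 and 9.48 on the control, 8.47, 8.38 and 8.20 on the Pax3 and 7.79, 7.76 and 7.68 on the Pax7 arrays. Control was highest and Pax7 lowest, again with no overlap. Meis2 was 2.20-fold lower in Pax3 (log2 difference -1.14 ± 0.066, SE, limma adjusted p = 1.3e-07) and 3.34-fold lower in Pax7 than in control arrays (-1.74 ± 0.066, adjusted p = 2.73e-09), and Pax7 lay below Pax3 arrays by -0.60 ± 0.066 (adjusted p = 8.53e-05). The order of the 3 groups was thus reversed between the probe sets of Meis1 and Meis2.

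Meis3 moved with Meis1 by a smaller amount. Its log2 intensity was 7.79 ± 0.104 on control, 8.12 ± 0.021 on Pax3 and 8.30 ± 0.064 on Pax7 arrays (SD, n = 3 each), differences from control of 0.33 ± 0.057 and 0.51 ± 0.057 (SE, limma adjusted p = 0.000756 and 2.35e-05). Between Pax7 and Pax3 arrays Meis3 did not pass (0.18 ± 0.057, adjusted p = 0.0581), although it did under 6 of 17 alternative settings (adjusted p from 0.0161 to 0.0478), among them leaving out control replicate 1 or 3.

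**Figure D3:**
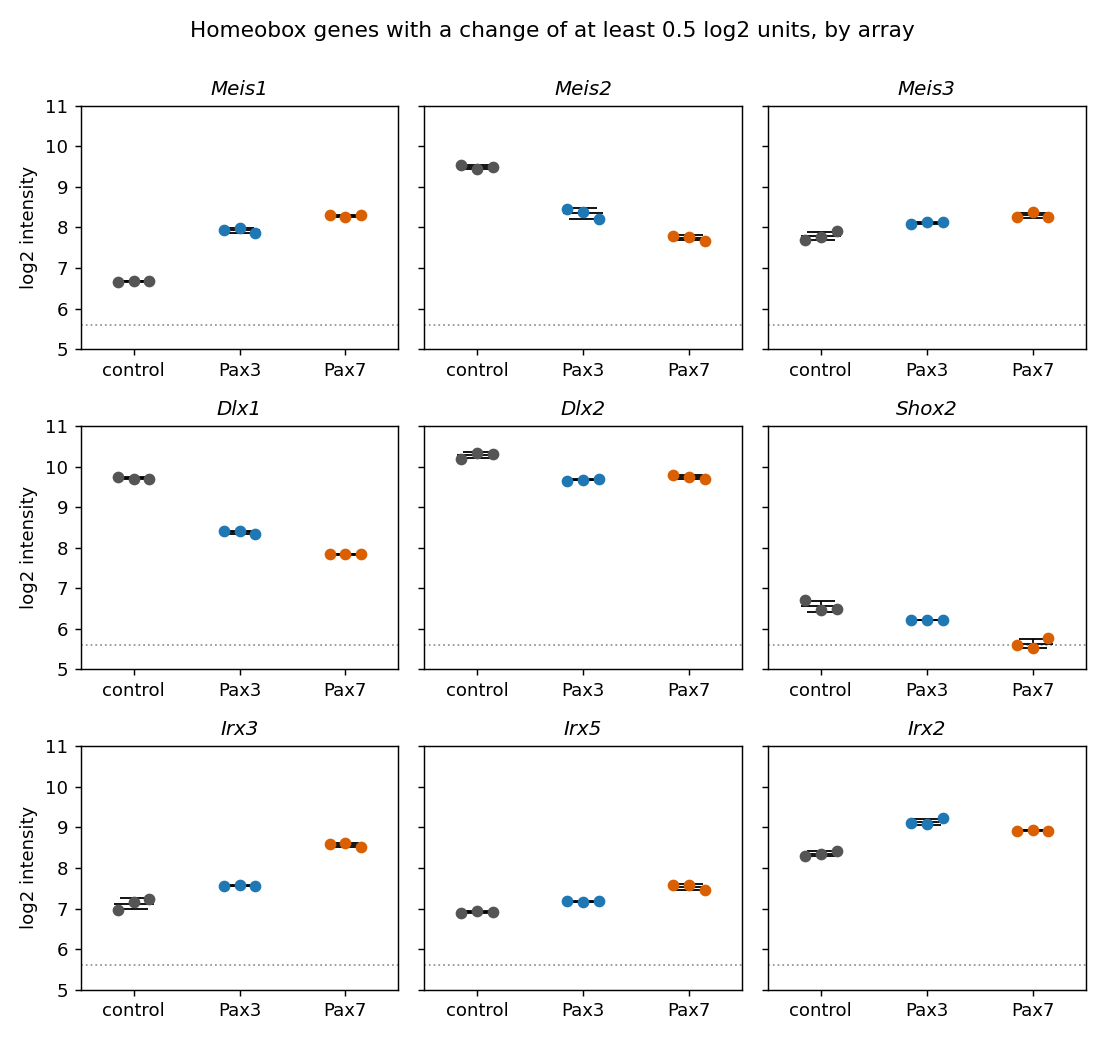
Log2 intensity (vertical axis) of the 9 homeobox genes that passed with a change of at least 0.5 log2 units, on each of the 3 arrays of the control, Pax3 and Pax7 groups (horizontal axis); points are arrays, bars are the mean and SD, and the dotted line is the yardstick at 5.6. Meis1 climbs from 6.67 in control to 8.29 in Pax7 arrays, Meis2 and Dlx1 descend, and Shox2 reaches the yardstick in Pax7 arrays.

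Pbx genes, which encode the common TALE partners of Meis and Hox proteins, held nearly level. Pbx2 and Pbx3 were among the stronger signals, at 9.75 ± 0.040 and 9.65 ± 0.017 in control, 9.89 ± 0.058 and 9.61 ± 0.097 in Pax3 and 9.80 ± 0.020 and 9.77 ± 0.022 in Pax7 arrays (SD, n = 3 each). Pbx2 passed between Pax3 and control arrays (0.14 ± 0.045, SE, limma adjusted p = 0.0248), which no longer passed without control replicate 1 or 3 or Pax3 replicate 2 or 3 (adjusted p up to 0.0872). Pbx3 passed between Pax7 and Pax3 arrays (0.17 ± 0.051, adjusted p = 0.0496), which held in leave-one-out fits only without Pax3 replicate 2 and rose to an adjusted p of up to 0.154 without the others. Against control Pbx3 did not pass in Pax7 arrays (0.12 ± 0.051, adjusted p = 0.0826), but did without Pax3 replicate 3 (0.016). Pbx4, best known from testis, was at 7.15, 6.88 and 7.04 in the 3 groups and fell by 0.27 on the log2 scale in Pax3 arrays (adjusted p = 0.00694).

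Partners and relatives of the TALE factors moved in both directions. Of 7 measured genes in a list of cofactors and relatives, 3 rose and 3 fell in Pax3 arrays and 3 rose and 3 fell in Pax7 arrays, with median log2 differences of 0.03 in both comparisons. Beside this list and the gene lists that follow, 39.6% of all genes passed between Pax3 and control arrays and 43.2% between Pax7 and control arrays. Pknox2, a TALE relative of Meis, fell furthest, from 7.70 in control to 5.94 in Pax3 and 5.48 in Pax7 arrays (-1.77 ± 0.051 and -2.22 ± 0.051, SE, limma adjusted p = 5.88e-10 and 6.34e-11), and was lower in Pax7 than in Pax3 arrays (-0.45 ± 0.051, adjusted p = 0.000107). In Pax7 arrays it lay below the yardstick. Pknox1 (-0.33 and -0.37) and Pbxip1, which binds Pbx proteins (-0.44 and -0.48), fell under both factors.

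Among the others, Hmga2, a chromatin protein of proliferating progenitors, rose from 10.57 in control to 11.77 in Pax3 and 11.91 in Pax7 arrays, and Tgif1, a TALE repressor of TGF-beta signalling, rose by 0.61 ± 0.041 and 0.67 ± 0.041 (limma adjusted p at most 4.69e-07). Mkx, a TALE factor of tendon, rose in Pax3 arrays (0.59 ± 0.084, adjusted p = 0.000168). Its difference in Pax7 arrays (0.23 ± 0.084, adjusted p = 0.0426) was lost in 6 of the 9 fits that each left out 1 array (all but those without control replicate 1 or Pax3 replicate 2 or 3, adjusted p up to 0.131).

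**Figure D4:**
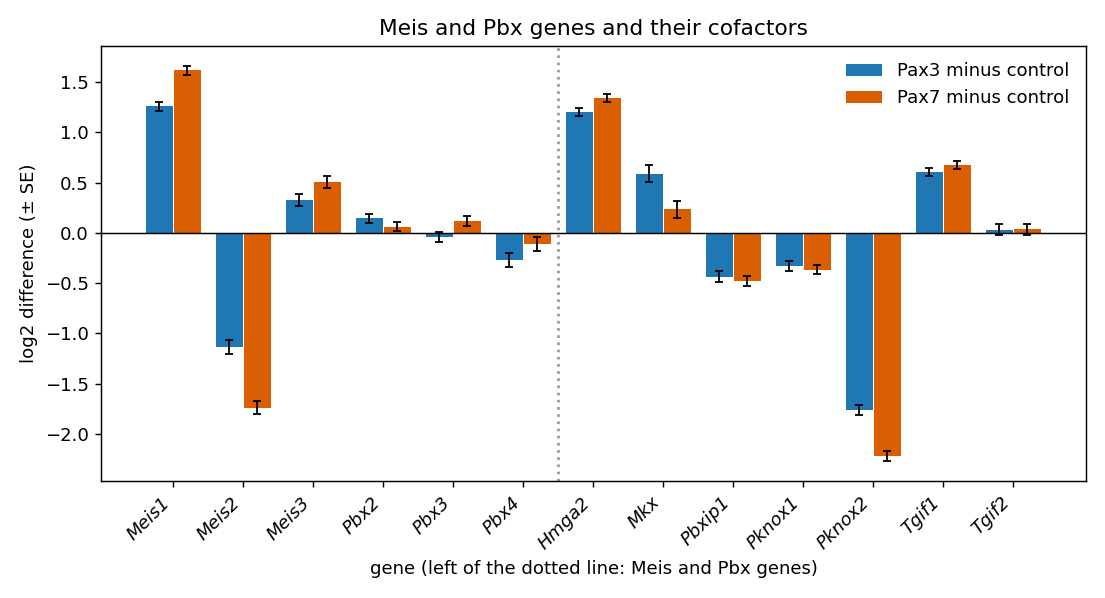
Log2 difference from control (vertical axis, bars from 0 with moderated standard error) in Pax3 and Pax7 arrays for the Meis and Pbx genes, left of the dotted line, and for 7 cofactors and relatives of the TALE class. Meis2 and Pknox2 go down, Meis1, Hmga2 and Tgif1 go up, and the 3 Pbx genes stay within 0.27 of control.

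Dlx genes encode relatives of fly Distal-less that lie in the genome as convergently transcribed pairs. Dlx1 had log2 intensities of 9.74, 9.70 and 9.69 on the control, 8.40, 8.40 and 8.33 on the Pax3 and 7.85, 7.84 and 7.83 on the Pax7 arrays. The groups were far apart for the spread within them. Dlx1 was 2.51-fold lower in Pax3 (-1.33 ± 0.040, SE, n = 3 per group, limma adjusted p = 7.63e-10) and 3.65-fold lower in Pax7 than in control arrays (-1.87 ± 0.040, adjusted p = 3.55e-11), the largest fall among the 53 genes in both comparisons. Pax7 lay below Pax3 arrays by -0.54 ± 0.040 (adjusted p = 5.08e-06).

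Dlx2, the other gene of that pair, stood at 10.28 ± 0.075 on control, 9.67 ± 0.014 on Pax3 and 9.74 ± 0.057 on Pax7 arrays (SD, n = 3 each). It fell by 0.60 ± 0.050 and 0.54 ± 0.050 on the log2 scale (SE, limma adjusted p = 2.13e-06 and 4.51e-06). Unlike Dlx1 it did not pass between Pax7 and Pax3 arrays (0.07 ± 0.050, adjusted p = 0.453). Dlx1as, the antisense transcript at Dlx1, was at 5.48, 5.56 and 5.48 and did not pass in any comparison (adjusted p from 0.251 to 0.946).

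Of the remaining Dlx genes, Dlx3, a factor of skin, hair and teeth, was higher in Pax3 arrays, at 7.47, 7.81 and 7.82 against 7.16, 7.15 and 7.39 in control (0.47 ± 0.098, SE, limma adjusted p = 0.00265). On the Pax7 arrays it was 7.41, 7.32 and 7.25, which overlapped control (0.09 ± 0.098, adjusted p = 0.493). The difference between Pax7 and Pax3 arrays (-0.37 ± 0.098, adjusted p = 0.024) was lost without replicate 2 or 3 of either factor (adjusted p up to 0.0962). Dlx4, Dlx5 and Dlx6 did not pass in any comparison.

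Irx genes encode the Iroquois proteins, also of the TALE class, and lie in the genome in triplets. Irx3 had log2 intensities of 6.96, 7.15 and 7.23 on the control, 7.56, 7.58 and 7.54 on the Pax3 and 8.59, 8.62 and 8.52 on the Pax7 arrays. Most of the step lay between Pax3 and Pax7 arrays. Against control, Irx3 was 1.36-fold higher in Pax3 (0.45 ± 0.063, SE, limma adjusted p = 0.000157) and 2.76-fold higher in Pax7 arrays (1.46 ± 0.063, adjusted p = 7.49e-09). Pax7 exceeded Pax3 arrays 2.02-fold (1.02 ± 0.063, adjusted p = 1.4e-06), the largest difference between the factors among the 53 genes.

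Irx5, the next Irx gene on that chromosome, had the same order of groups at a smaller size. It stood at 6.92 ± 0.019 on control, 7.17 ± 0.015 on Pax3 and 7.53 ± 0.078 on Pax7 arrays (SD, n = 3 each), differences from control of 0.25 ± 0.046 and 0.62 ± 0.046 (SE, limma adjusted p = 0.00107 and 7.95e-07). Pax7 exceeded Pax3 arrays by 0.36 ± 0.046 (adjusted p = 0.000254). Irx6, the last of the triplet, did not pass in any comparison. Irx3os, a non-coding transcript beside Irx3, was at 6.29 on control, 6.49 on Pax3 and 6.52 on Pax7 arrays (0.20 ± 0.067 and 0.23 ± 0.067, adjusted p = 0.033 and 0.0158). The first call was lost without control replicate 1 or 3 or Pax3 replicate 3 (adjusted p up to 0.129), and the second without control replicate 1 or Pax7 replicate 1 or 3 (up to 0.069).

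In the second triplet Irx2 rose and was higher in Pax3 than in Pax7 arrays. It stood at 8.36 ± 0.066 on control, 9.14 ± 0.074 on Pax3 and 8.92 ± 0.018 on Pax7 arrays (SD, n = 3 each), 0.78 ± 0.051 and 0.57 ± 0.051 above control (SE, limma adjusted p = 3.22e-07 and 3.49e-06). The difference of Pax7 from Pax3 arrays was -0.21 ± 0.051 (adjusted p = 0.0138), and it just missed the threshold without Pax7 replicate 1 or 3 (0.0514 and 0.0518). Irx1 was at 6.73 on control, 6.51 on Pax3 and 6.82 on Pax7 arrays: it fell by 0.22 ± 0.048 in Pax3 arrays (adjusted p = 0.00344), did not pass in Pax7 arrays (0.09 ± 0.048, adjusted p = 0.171), and was higher in Pax7 than in Pax3 arrays (0.31 ± 0.048, adjusted p = 0.0011). Irx4 did not pass.

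The measured coding genes on either side of these groups, placed by the order of genes in GRCm38.p6 and looked up after the values of the homeobox genes were known, did not share one direction. Next to Dlx1, Metap1d, a mitochondrial aminopeptidase gene, fell by 0.21 and 0.28 on the log2 scale in Pax3 and Pax7 arrays (limma adjusted p = 0.00119 and 0.000142). Next to Dlx2, the laminin receptor subunit gene Itga6 fell by 0.56 and 0.47 (1.84e-05 and 5.61e-05), about the size of Dlx2, and Pdk1 beyond it rose by 1.28 and 1.01 (1.81e-06 and 1.02e-05). Next to Irx3, the demethylase gene Fto differed from control by -0.11 and -0.05 and did not pass (0.0592 and 0.41), though it did in Pax3 arrays under 5 of 17 alternative settings, among them leaving out Pax3 replicate 2 (0.0169). Beyond Irx6, the gelatinase gene Mmp2 fell by 1.11 in Pax7 arrays (6.36e-09) and by 0.17 in Pax3 arrays (0.0154), the latter lost without control replicate 3 or Pax3 replicate 1 (up to 0.0565). Rpgrip1l, a gene of the primary cilium beyond Fto, fell by 0.41 and 0.54 (0.00231 and 0.000303). Around the second triplet, Ice1, Adamts16 and Ndufs6 did not pass in either comparison with control, and the mitochondrial ribosome gene Mrpl36 fell by 0.17 and 0.21 (0.0167 and 0.0046), the first lost without control replicate 1 or 2 (up to 0.0653). Lpcat2, beyond Mmp2, differed by 0.27 and 0.20 (0.0308 and 0.0862), the first lost without control replicate 1 or 2 or Pax3 replicate 2 or 3 (up to 0.123), and the second passing without control replicate 3 or Pax7 replicate 1. Its group means of 5.31 on control, 5.57 on Pax3 and 5.51 on Pax7 arrays lay below the yardstick.

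**Figure D5:**
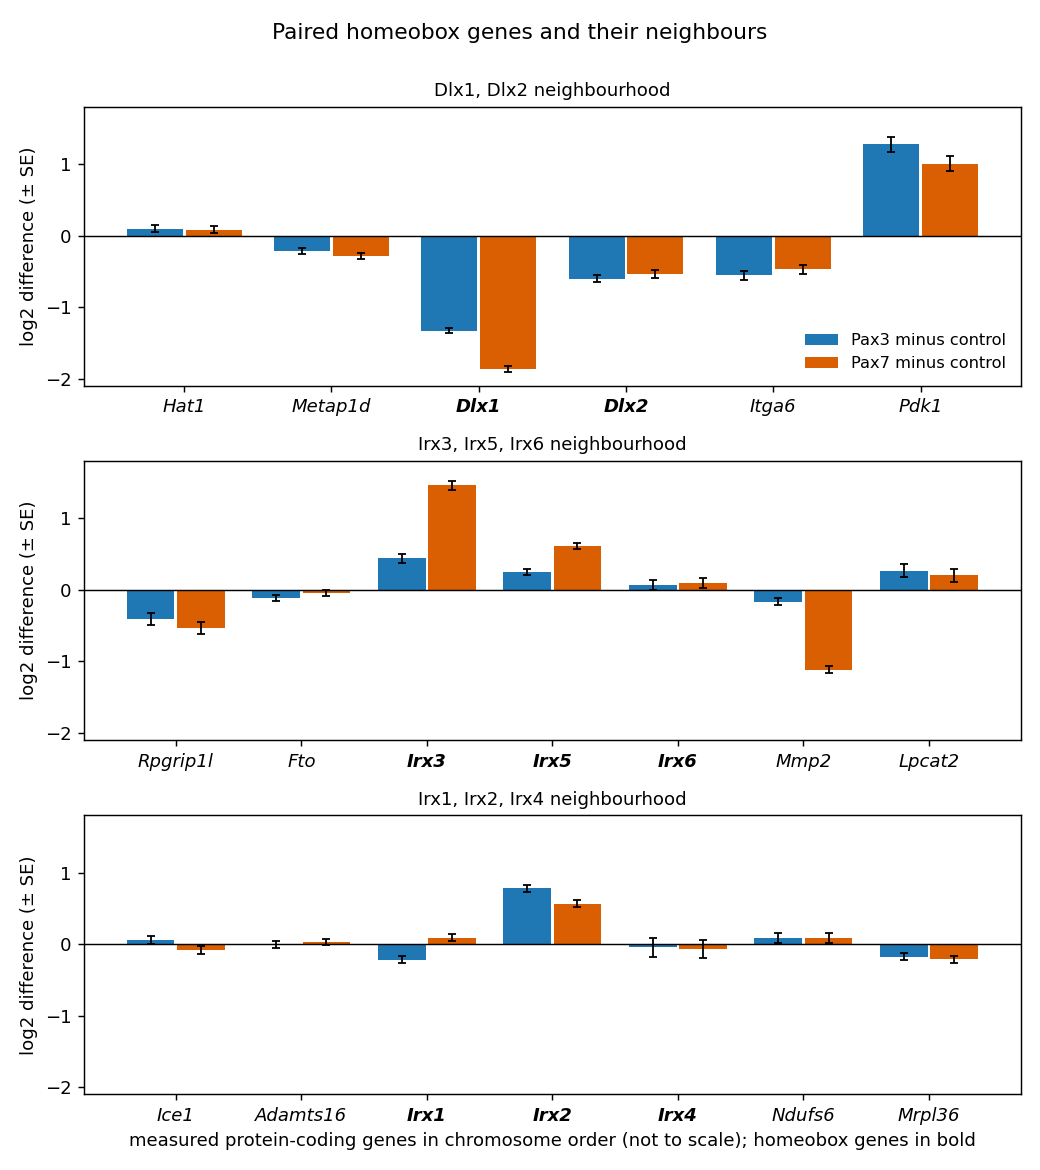
Log2 difference from control (vertical axis, bars from 0 with moderated standard error) in Pax3 and Pax7 arrays for 3 groups of neighbouring homeobox genes (bold) and the 2 nearest measured coding genes on each side, in chromosome order and not to scale (horizontal axis). Dlx1 and Dlx2 are both below 0, Irx3 and Irx5 both above 0, and Irx2 rises between Irx1 and Irx4, which do not.

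Shox2, a regulator of limb growth and of the cardiac pacemaker, had log2 intensities of 6.72, 6.46 and 6.49 on the control, 6.22, 6.22 and 6.22 on the Pax3 and 5.60, 5.54 and 5.77 on the Pax7 arrays. The groups did not overlap, and the Pax7 values lay around the yardstick of 5.6. Shox2 fell by 0.34 ± 0.075 in Pax3 (SE, limma adjusted p = 0.00371) and by 0.92 ± 0.075 in Pax7 arrays (1.6e-06), and the difference of Pax7 from Pax3 arrays was -0.58 ± 0.075 (0.000282).

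Prrx1 was the strongest signal of the set and changed little. It stood at 11.25 ± 0.022 on control, 11.01 ± 0.039 on Pax3 and 10.996 ± 0.042 on Pax7 arrays (SD, n = 3 each), log2 differences of -0.24 ± 0.042 and -0.25 ± 0.042 (SE, limma adjusted p = 0.000839 and 0.000488). Prrx2 differed from control by -0.22 ± 0.058 and -0.33 ± 0.058 (0.01 and 0.000707). Both genes of the family fell under both factors, by at most 1.26-fold, and neither passed between Pax7 and Pax3 arrays.

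Msx2, a target of BMP signals in limb and skull, was close to the yardstick, at 5.78 on control, 5.41 on Pax3 and 5.49 on Pax7 arrays (-0.37 ± 0.068 and -0.29 ± 0.068, SE, limma adjusted p = 0.00101 and 0.00455). Msx1, which holds back differentiation in limb myoblasts, was at 6.55, 6.43 and 6.42 and did not pass (adjusted p = 0.161 and 0.125 against control), and neither did Msx3. Pitx3 rose under both factors, from 8.13 to 8.44 and 8.41 (0.31 ± 0.056 and 0.29 ± 0.056, adjusted p = 0.000934 and 0.00158). Pitx1, the hindlimb selector, did not pass. Alx1 passed in Pax7 arrays from values at or below the yardstick, 5.09 in control and 5.33 in Pax7 arrays (0.24 ± 0.066, adjusted p = 0.0122), lost without control replicate 2 or Pax7 replicate 1 (0.054 and 0.0547). Alx4, Barx1 and Barx2 did not pass.

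None of the 8 Lhx and none of the 13 Nkx genes passed in any of the 3 comparisons. Their log2 differences from control ran from -0.10 to 0.13 (Pax3) and -0.10 to 0.17 (Pax7) for Lhx genes and from -0.04 to 0.21 and 0.02 to 0.19 for Nkx genes, with standard errors of up to 0.140. The highest group means were 6.83 for Lhx6 and 7.36 for Nkx2-4, so changes in genes near the low-signal range could have been missed at this precision. At an unadjusted p under 0.05, 19, 19 and 13 of the 53 genes passed in the comparisons of Pax3 with control, Pax7 with control and Pax7 with Pax3, beside 45%, 49.1% and 27% of all genes.

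Lhx proteins work with LIM-binding partners. Of 13 measured partners and relatives, 1 rose and 4 fell in Pax3 arrays and 2 rose and 4 fell in Pax7 arrays (medians -0.01 and -0.02). The LIM-only protein gene Lmo2, of blood and vessel progenitors, fell by 0.38 ± 0.072 and 0.72 ± 0.072 (SE, limma adjusted p = 0.00137 and 9.1e-06). Ssbp2, which encodes a stabiliser of the Ldb1 complex, fell by 0.41 ± 0.050 and 0.70 ± 0.050 (5.29e-05 and 5.44e-07), and its relative Ssbp4 rose by 0.25 and 0.26. Lmo1 differed by -0.25 in Pax3 arrays (adjusted p = 0.0307), lost without control replicate 1 or 2 or Pax3 replicate 2 (up to 0.107), and by -0.07 in Pax7 arrays (0.549). At 4.94 on control, 4.69 on Pax3 and 4.87 on Pax7 arrays, Lmo1 lay below the yardstick in every group.

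Homeobox genes of other families, outside Hox, moved in both directions. Of 62 measured genes, 8 rose and 12 fell in Pax3 arrays, 5 rose and 13 fell in Pax7 arrays, and 3 rose and 3 fell in Pax7 against Pax3 arrays, with medians of 0.02, 0.08 and 0.06. Over all genes 39.6%, 43.2% and 16.9% passed in these comparisons, and the differences in share were not tested. The zinc-finger homeobox repressor Zhx2 fell from 9.27 in control to 6.77 in Pax3 and 6.74 in Pax7 arrays ( limma adjusted p = 1.2e-10 and 6.24e-11) and Zhx1 fell too, with log2 differences of -1.40 ± 0.091 and -1.04 ± 0.091 (SE, 3.38e-07 and 2.87e-06). Zfhx4, a large zinc-finger homeobox gene, fell by 0.41 ± 0.058 in Pax3 and 1.43 ± 0.058 in Pax7 arrays (0.000156 and 4.63e-09), and the difference between them was -1.02 ± 0.058 (7.32e-07). Six4, which works with Eya cofactors in myogenesis, fell by 0.86 and 0.90.

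Signals known to act on Msx, Dlx, Prrx, Alx and Nkx genes in embryonic mesenchyme gave 5 rises and 3 falls among 22 in Pax3 arrays and 7 rises and 6 falls in Pax7 arrays (medians 0.01 and 0.08). The ligand gene Bmp4 rose by 1.72 ± 0.094 and 5.40 ± 0.094 (SE, limma adjusted p = 7.88e-08 and 9.46e-12), beside the values of Msx1 and Msx2 given earlier. The BMP antagonist Grem1 rose by 2.12 and 1.89 and the ligand Wnt5a by 2.77 and 2.56. Wnt7a, a ligand of dorsal limb ectoderm and of satellite cell growth, was at 5.07, 5.06 and 7.20 and rose in Pax7 arrays (2.13 ± 0.077, adjusted p = 1.75e-09) but did not pass in Pax3 arrays (-0.01 ± 0.077, 0.944); Pax7 exceeded Pax3 arrays by 2.14 ± 0.077 (2.71e-08).

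A list of skeletal and connective tissue genes was chosen as possible targets of these factors. Among the 22 measured, 3 rose and 8 fell in Pax3 arrays and 4 rose and 7 fell in Pax7 arrays (medians -0.02 and 0.02). Whether any of them responds to the homeobox factors in these cells was not tested. Sp7, the osteoblast factor, fell (log2 differences -2.40 ± 0.056 and -2.31 ± 0.056, SE), and so did Tbx15, a factor of limb and trunk mesenchyme (-1.81 ± 0.069 and -2.70 ± 0.069, limma adjusted p at most 4.66e-09). The matrix gene Tnc rose by 2.23 and 2.17. The cartilage proteoglycan gene Acan rose by 0.48 ± 0.064 in Pax3 and 2.09 ± 0.064 in Pax7 arrays (0.000101 and 5.14e-10), 1.61 ± 0.064 more in Pax7 than in Pax3 arrays (5.93e-08). In control arrays the mean of Acan was at or below the yardstick.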

How the data were processed

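Per the labels, biotin-labelled total RNA was hybridised to Affymetrix arrays. The authors deposited log2 intensities made with RMA in R 2.10.0, per the submitters' processing notes: 25668 probe sets on 9 arrays, from 1.93 to 13.23, with array medians of 6.397 to 6.477. Quantile normalisation within RMA assumes like distributions over arrays, and their number limits precision. The sources used here name no probe filter, genome build or annotation version. Of the probe sets, 20777 had 1 symbol in the platform annotation, 232 several and 4659 none. Where a gene had several, its probe set of highest mean signal was kept (19661 genes).

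All 9 arrays entered 1 model with a mean for each group, in limma 3.58.1 in R 4.3.3 (lmFit and eBayes, prior df 4.37, residual df 6). Errors of differences are moderated standard errors. The script was tested on simulated data. The members, gene lists and tests were chosen with earlier results of these data known. By rule, values are given per array for members with a change of at least 1 log2 unit and as group means for those of at least 0.5, and up to 4 genes per list are named. Smaller changes, the per-array values of Shox2 and Dlx3, and neighbouring genes were added after values were seen. Alternatives covered the replicate block, low-signal filter, centring, groups in the fit, prior, probe choice, array weights, a fold threshold of 1.2 and each array left out. Promoter sequences came from RefSeq (GRCm38.p6).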

Additional observations from a re-analysis of the deposited data

Results flagged for a closer look

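For 10 homeobox genes the signal differed in the direct test of Pax7 against Pax3 arrays (limma adjusted p under 0.05), given as log2 Pax7 minus Pax3. The difference was positive in Irx3 (1.02), Meis1 (0.36), Irx5 (0.36), Irx1 (0.31) and Pbx3 (0.17). It was negative in Meis2 (-0.60), Shox2 (-0.58), Dlx1 (-0.54), Dlx3 (-0.37) and Irx2 (-0.21). The calls of Pbx3, Dlx3 and Irx2 each ended in some fits that left out 1 array. Groups of 3 arrays are too small for a test of single outlying arrays. Estimated array weights ran from 0.271 for Pax3 replicate 3 and 0.532 for Pax3 replicate 2 to 2.36 for Pax3 replicate 1, and without Pax3 replicate 3 the genes called between Pax7 and Pax3 arrays rose from 3316 to 4277.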

How the results depend on the processing

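Over 17 alternative settings, 1175 of 1245 log2 differences of 25 homeobox genes kept their side of the threshold, 59 no longer passed and 11 newly passed. Of the values that passed in the main fit or in the alternative, 0 changed sign. Values that passed in neither could change sign. Irx4 between Pax3 and control arrays, for example, ran from -0.20 to 0.11 in the fits that left out 1 array. A required fold change of 1.2 cut the counts most, to 3 higher and 3 lower homeobox genes and 3264 genes in all for Pax3 against control, 5, 4 and 3819 for Pax7 against control, and 1, 3 and 784 for Pax7 against Pax3; this test asks for more than a difference from 0. Array weights raised Pax7 against Pax3 to 8 higher homeobox genes and 5348 genes in all (3316 without weights), and the cause was not tested. Leaving out each array in turn gave 7 to 9 higher and 9 to 9 lower homeobox genes and 6903 to 7753 genes in all for Pax3 against control, 6 to 13 higher, 7 to 7 lower and 7519 to 9253 for Pax7 against control, and 4 to 7 higher, 3 to 5 lower and 2507 to 4277 for Pax7 against Pax3. With the replicate number as a block, 10 homeobox genes were higher and 9 lower for Pax3 against control, 10 and 7 for Pax7 against control, and 4 and 5 for Pax7 against Pax3. Same-numbered arrays correlated at -0.026 to 0.225 in their deviations from group means, and the best differently numbered array at -0.133 to 0.246. Between control and Pax3 arrays the same number gave the higher value in every replicate (0.070 against 0.007, 0.143 against 0.123 and 0.218 against -0.133). Between control and Pax7 arrays it gave the lower value in every replicate (-0.026 against 0.103, 0.011 against 0.074 and -0.013 against 0.058). Between Pax3 and Pax7 arrays it gave the higher value in replicates 1 and 3 (0.067 against -0.032 and 0.225 against 0.013). In replicate 2 it gave the lower (0.009 against 0.246). The labels do not say that a number marks a shared culture or day, so the numbers were not taken as pairs. Genes near the yardstick are limited by low signal.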

Other observations

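Around the Dlx3 and Dlx4 pair and the Dlx5 and Dlx6 pair, some neighbouring genes changed. Slc25a13, a mitochondrial aspartate and glutamate carrier gene near Dlx6, was lower in Pax3 than in control arrays (-0.57 ± 0.072, SE, n = 3 per group, limma adjusted p = 6.54e-05) and higher in Pax7 arrays (0.92 ± 0.072, 1.1e-06), a difference of 1.49 ± 0.072 between Pax7 and Pax3 arrays (2.28e-07). Itga3, a laminin receptor subunit gene next to Dlx3, rose by 0.74 and 1.22 (2.25e-07 and 2.69e-09). These genes were chosen after their values were seen.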
